A study of Mus musculus with 8 samples.

Results

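Peaks of 3 proteins were examined at 10 neuronal microRNA genes of the mouse: Mir124a-1, Mir124a-2, Mir124a-3, Mir137, Mir128-1, Mir128-2, Mir132, Mir212, Mir125b-1 and Mir125b-2. They are 10 of the 1228 microRNA genes that the RefSeq annotation of mm10 places on the 21 main chromosomes. They are a list of names with no threshold on peak values. Each was taken with the gene that contains it, called its host gene, and 20 kb on either side. The proteins were Mgea5, which takes the sugar O-GlcNAc off other proteins, Panx2, known as a channel protein of the pannexin family, and Polr1c, part of both RNA polymerase I and RNA polymerase III. ChIP-seq, the sequencing of DNA crosslinked to an immunoprecipitated protein, gave 1 peak list for each of 2 replicates per protein, and the study's title asks where a set of proteins binds at the miR-9 locus. All libraries came from primary neural progenitor cells of the hippocampus of male C57BL/6 mice, grown with B27 supplement, with no genotype or treatment that differs between them. The age of the mice is not given in the sources used here, and nothing in the labels says that the replicates are separate cultures or animals, so their spread may be technical.

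MicroRNAs are short RNAs cut from hairpin precursors. They guide Argonaute proteins to messenger RNAs that pair with the seed, the bases near the 5′ end of the microRNA, and lower the output of those messages. Several of the microRNAs described here are textbook regulators of neuronal differentiation: miR-124 lowers the splicing repressor Ptbp1 and other genes of non-neuronal cells, miR-137 acts on chromatin enzymes such as Ezh2 and Kdm1a, and miR-132 is induced by the activity-dependent factor Creb1. The repressor Rest is known to keep the miR-124 and miR-132 genes silent outside neurons. miR-128 is abundant in the brain, and miR-125b is the vertebrate counterpart of lin-4, the founding microRNA of the worm.

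The mature sequences show which of the 10 genes make the same product, and so which loci are copies of each other. The RefSeq table (GRCm38.p6, the assembly of mm10) held mature entries for 7 of the 10 genes; Mir124a-1, Mir124a-2 and Mir124a-3 are named only. The main arm of each is printed from 5′ to 3′ with the seed, bases 2 to 8, in capitals.
miR-137-3p: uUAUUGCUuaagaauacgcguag
miR-128-3p: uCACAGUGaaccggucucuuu
miR-132-3p: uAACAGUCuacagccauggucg
miR-212-3p: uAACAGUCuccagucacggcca
miR-125b-5p: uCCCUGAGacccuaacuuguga
Mir128-1 on chromosome 1 and Mir128-2 on chromosome 9 give the same miR-128-3p, and Mir125b-1 on chromosome 9 and Mir125b-2 on chromosome 16 the same miR-125b-5p. The seed AACAGUC is shared by miR-132-3p and miR-212-3p, which are identical at 17 of 22 positions. In the whole table that seed belongs to these 2 names alone, whereas the seed of miR-125b-5p is held by 5 names, among them miR-125a-5p and miR-351-5p.

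The genes fall into 9 separate loci, since Mir212 (chr11:75173388-75173478) and Mir132 (chr11:75173682-75173747) lie 203 bp apart. Of the 10, 5 lie inside a longer gene. Mir124a-1 (chr14:64590657-64590741) lies in the non-coding RNA gene Mir124a-1hg, and Mir124a-2 (chr3:17795662-17795770) in the non-coding RNA gene Mir124-2hg. Mir125b-1 (chr9:41581926-41582002) is part of Mir100hg, a non-coding RNA gene that also holds Mir100 and Mirlet7a-2. The protein-coding host genes are R3hdm1 for Mir128-1 (chr1:128202361-128202430) and Arpp21, which encodes a cyclic AMP-regulated phosphoprotein, for Mir128-2 (chr9:112118636-112118711). Mir124a-3 (chr2:180894040-180894107), Mir137 (chr3:118433857-118433929), Mir132, Mir212 and Mir125b-2 (chr16:77646273-77646343) have no host gene in this annotation, and the regions of Mir137 and Mir125b-2 hold no other annotated gene.

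The 6 lists differed widely in length, with 536399 and 520997 peaks for Mgea5 on the main chromosomes, 145209 and 478180 for Panx2, and 785 and 35727 for Polr1c. Most listed peaks were weak: the share with a q (the caller's adjusted p) of at most 0.01 ran from 0.00758% to 0.0772% in the 4 lists of Mgea5 and Panx2 and was 27.5% and 3.75% in the Polr1c lists. The peak names show that Panx2 replicate 1 and Polr1c replicate 1 were called in another run directory than the other lists. Fold enrichment (ChIP pileup over background, the authors' value) can be compared only within a list. The depth of the libraries is unknown, and the input samples were not used here. Median folds ran from 1.71 to 3.05 over the 6 lists. A highest or mean fold taken over several lists therefore names a peak or a gene and does not compare the lists. Peak lists do not measure expression and cannot check the cell type: of 8 progenitor markers, 5 had Mgea5 peaks of both replicates at a gene end (64.3% of all protein-coding genes did), against 3 of 6 neuronal, 3 of 4 astrocyte, 2 of 4 oligodendrocyte and 3 of 3 microglial markers.

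The microRNA loci held weak peaks only. Their regions, 920.591 kb in all, contained 745 peaks over the 6 lists: 232 and 229 of Mgea5, 69 and 205 of Panx2, and 0 and 10 of Polr1c. None of the 745 had a q of at most 0.01. The lowest q was 0.0169, for a Polr1c replicate 2 peak at the start of R3hdm1. The highest deposited fold was 3.56, for a Polr1c replicate 2 peak beside Mir124a-3, in a list with a median fold of 2.75. The highest Mgea5 fold was 2.72, for a replicate 2 peak in R3hdm1 (q 0.827). The highest Panx2 fold was 2.62, for a replicate 2 peak in the Mir125b-2 region (q 0.274).

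Within 5 kb of the precursor, nearly all 10 genes had a Mgea5 peak, as most microRNA genes did, 6 had Panx2 peaks of both replicates, and Polr1c peaks were rare. A Mgea5 peak lay there at all 10 genes in replicate 1 (91.4% of all microRNA genes) and at 9 in replicate 2 (83.5%), so 9 had peaks of both replicates against 80.5% of all microRNA genes. The exception was Mir124a-2. Panx2 peaks lay at 6 genes in replicate 1 (34.8%) and at 10 in replicate 2 (90.5%), and the 6 with peaks of both replicates stand beside 33.8% of all microRNA genes. Those 6 were Mir124a-2, Mir137, Mir128-1, Mir128-2, Mir132 and Mir212, where Mir132 and Mir212 share their peaks. With replicate 2 alone the Panx2 count would be 10. Polr1c peaks lay at 0 genes in replicate 1 (0.977%) and at 3 in replicate 2 (21.7%), namely Mir124a-3, Mir132 and Mir212, and no gene had peaks of both replicates (0.896%).

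Fewer peaks covered the precursor itself, the stretch that is folded and cut. Mgea5 replicate 1 peaks overlapped 2 precursors, those of Mir137 and Mir212 (26.4% of all microRNA genes). Mgea5 replicate 2 overlapped 1, that of Mir137 (15.6%), which was therefore the 1 precursor under Mgea5 peaks of both replicates (4.97%). Panx2 replicate 1 overlapped 0 (3.5%) and Panx2 replicate 2 overlapped 6 (32.2%): Mir124a-1, Mir124a-3, Mir137, Mir128-2, Mir132 and Mir212. Mir137 alone had Mgea5 peaks of both replicates and a Panx2 replicate 2 peak over the precursor, a combination that 2.36% of all microRNA genes show. These are just the lists with a peak over Mir137. The combination thus follows from the values at Mir137 themselves, and the share is a description only.

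**Figure D1:**
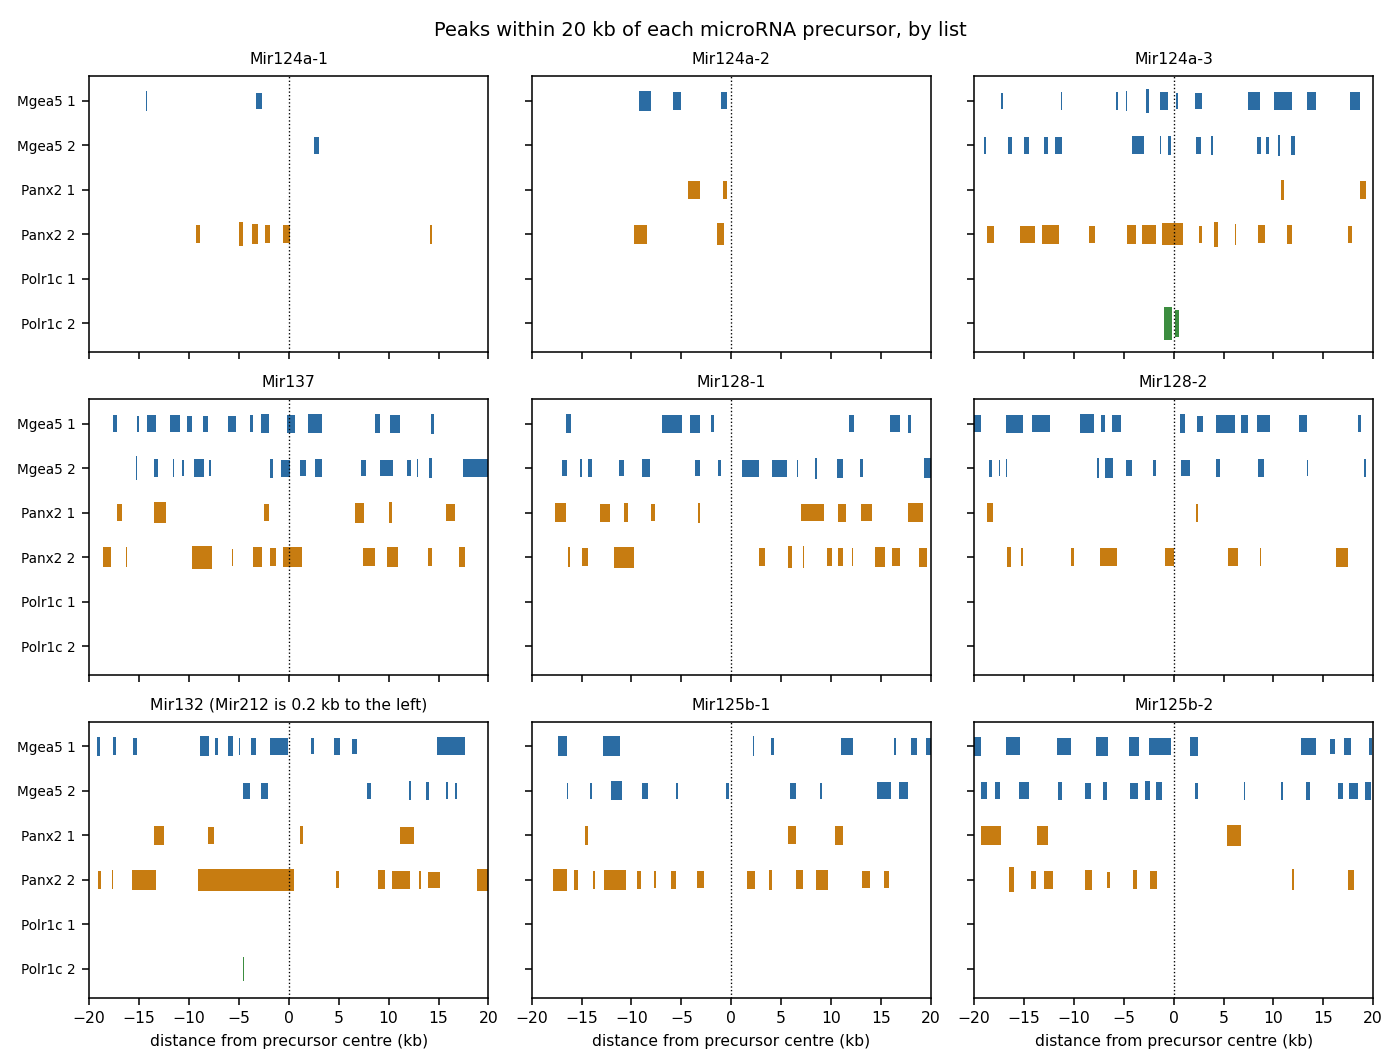
Peaks within 20 kb of each precursor; the horizontal axis is the distance from the precursor centre in kb in chromosome order, each row is 1 list (Mgea5 blue, Panx2 orange, Polr1c green), each bar is 1 peak and a taller bar has a higher fold. Polr1c bars appear beside Mir124a-3 and to the left of Mir132, a 9588 bp Panx2 replicate 2 peak runs up to and over Mir132, and the Mir124a-1 and Mir124a-2 panels hold few bars.

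The 3 genes for miR-124 differed in their peaks. Mir124a-3 stood high among microRNA genes in 4 of the 6 lists, while Mir124a-2 was low in both Mgea5 lists and Mir124a-1 in replicate 1. At Mir124a-3 the highest fold within 5 kb was 2.58 in Mgea5 replicate 1 (percentile 99.9 among the 1228 microRNA genes, counting no peak as 0) and 1.97 in replicate 2 (percentile 89.9). Both replicates thus ranked it high among the microRNA genes, although the peaks of highest fold lay on opposite sides of the precursor, 2433 bp below it and 3729 bp above it. Panx2 replicate 2 had a peak over the precursor (chr2:180892951-180895005, fold 2.28) and its highest fold, 2.55, at 3968 bp (percentile 95.2), whereas the nearest Panx2 replicate 1 peak was 10764 bp away. Polr1c replicate 2 had a peak on either side of the hairpin, chr2:180893108-180893886, 154 bp below it (fold 3.56, q 0.0671), and chr2:180894189-180894573, 82 bp above it (fold 2.91, q 0.237). The fold of 3.56 was at percentile 97.9 among the microRNA genes, and 31 of them, 2.52%, had a Polr1c replicate 2 peak within 200 bp, a distance chosen after these values were seen. The nearest Polr1c replicate 1 peak was 1036207 bp away, so the Polr1c peaks beside Mir124a-3 came from 1 library.

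The positions beside Mir124a-3 carried weak peaks of the other proteins too. The Polr1c peak below the hairpin overlapped peaks of both Mgea5 replicates (folds 1.88 and 1.87) and the Panx2 replicate 2 peak. The Polr1c peak above it overlapped peaks of Mgea5 replicate 1 (fold 1.47) and Panx2 replicate 2. Polr1c replicate 2 peaks covered 2.91% of the 40.1 kb around Mir124a-3, which was at percentile 99.6 of the regions of all microRNA genes. Ythdf1, which encodes a reader of methylated adenosine in RNA, lies 10270 bp away and had peaks of both Mgea5 replicates (1.72 and 2.13) and both Panx2 replicates (2.01 and 2.01) at its ends, the Panx2 peaks at opposite ends.

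Mir124a-1 had no overlapping peaks of 2 replicates of any protein in its region. Such overlaps were found in 89.9% of all microRNA regions for Mgea5, in 65.6% for Panx2 and in 2.36% for Polr1c. At Mir124a-1 the highest Mgea5 folds within 5 kb were 1.55 (percentile 9.61), 2694 bp below the precursor, and 1.74 (percentile 47.4), 2508 bp above it. Panx2 replicate 2 gave 4 peaks there, with a highest fold of 2.47 (percentile 92.6) at 4587 bp and a fold of 1.81 for the peak over the precursor, while the nearest Panx2 replicate 1 peak was 37599 bp away. The nearest Polr1c peak of either replicate was 443617 bp away. Mir3078, a microRNA gene 444 bp from Mir124a-1, had the same Mgea5 folds. Mir124a-1 lies on chromosome 14 beyond 45 Mb, where the lists were sparse: of 34 microRNA genes there, 27 and 11 had a Mgea5 peak within 5 kb, 1 and 26 a Panx2 peak, and 0 and 1 a Polr1c peak. The part of this sparseness in the values at Mir124a-1 was not tested.

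Mir124a-2 was the gene where the Panx2 replicates met. Panx2 replicate 1 (chr3:17794929-17795266, fold 1.80, percentile 79.8) and replicate 2 (chr3:17794283-17795019, fold 2.25, percentile 78.8) overlapped over 91 bp that end 643 bp from the precursor. Overlapping Panx2 peaks of both replicates within 5 kb were found at 1 of the 10 genes, and at 15.5% of all microRNA genes. Mgea5 replicate 1 had its only peak within 5 kb at the same place (chr3:17794700-17795291, fold 1.69, percentile 24.8), whereas the nearest Mgea5 replicate 2 peak was 20130 bp away. These peaks lie inside the host gene Mir124-2hg. RefSeq also lists Gm51272, a microRNA gene within the Mir124a-2 precursor, whose peaks are therefore the same.

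Mir137 was covered by Mgea5 in both replicates. The replicate 1 peak (chr3:118433731-118434511, fold 1.81) and the replicate 2 peak (chr3:118433103-118433991, fold 1.70) overlapped over 261 bp that contain the whole precursor. A Panx2 replicate 2 peak, chr3:118433338-118435180 with a fold of 1.96, covered it as well, and the nearest Panx2 replicate 1 peak lay 1971 bp away. The highest folds within 5 kb were 1.98 and 1.89 in Mgea5 (percentiles 82.0 and 78.1) and 1.76 and 2.0003 in Panx2 (percentiles 71.4 and 49.2). In the 40.1 kb region, 9 of 15 Mgea5 replicate 1 peaks (60%) were overlapped by replicate 2, against 34.8% of the whole list. Panx2 replicate 1 peaks covered 10.8% of the region, at percentile 97.7 of all microRNA regions. The q of the peaks over the Mir137 precursor was 1 in both Mgea5 lists and 0.895 in Panx2 replicate 2, so the position recurred at low enrichment. The nearest Polr1c peak was 63383 bp away.

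The locus of Mir212 and Mir132 was marked by a wide Panx2 peak. In Panx2 replicate 2, a peak of 9588 bp (chr11:75164636-75174223, fold 2.22, q 0.586) ran from inside Hic1, which encodes a zinc finger repressor, over the Hic1 start and both precursors. Only 13 of the 478180 peaks of that list, itself included, were as wide or wider, which is 0.00272%. Panx2 peaks of replicate 2 covered 45.02% of the Mir132 region, percentile 98.3 of all microRNA regions, and those of replicate 1 covered 8.44%, percentile 92.1. Panx2 replicate 1 overlapped the wide peak at chr11:75165590-75166254, 7428 bp from Mir132, and its nearest peak to the precursor was 1117 bp away, with a fold of 1.83 (percentile 83.6). The whole stretch was thus a peak in 1 library, and the other shared a part of it inside Hic1.

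Mgea5 peaks within 5 kb of Mir212 and Mir132 did not overlap between the replicates, and 59.9% of all microRNA genes had such an overlap. A replicate 1 peak (chr11:75171818-75173620, fold 1.78) overlapped Mir212 and ended 62 bp before Mir132, while the highest replicate 2 fold within 5 kb was 1.52, at 3889 bp from Mir132, percentile 18.3. Of 14 Mgea5 replicate 1 peaks in the Mir132 region, 1 (7.14%) was overlapped by replicate 2, against 34.8% of the whole list. That peak lay at Dph1, a gene of diphthamide synthesis. Polr1c replicate 2 had a peak of 162 bp in Hic1 (chr11:75169103-75169264), 4418 bp from Mir132 (fold 2.56, q 0.809). A RefSeq promoter of Hic1 at chr11:75170206-75170505, under the wide Panx2 peak, had 64.7% G and C and 20 CG dinucleotides, against medians of 52.7% and 7 over 32851 promoters. Another Hic1 promoter under that peak, chr11:75168103-75168402, had 77.3% and 29. No full cyclic AMP response element, TGACGTCA on either strand, was found in either promoter, and 1.79% of all promoters hold that motif.

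The 2 genes for miR-128 lie deep inside protein-coding genes, 98357 bp from the Polr1c peak at the start of R3hdm1 and 116730 bp from that at the start of Arpp21. At Mir128-1 the highest folds within 5 kb were 1.81 and 1.71 in Mgea5 (percentiles 51.8 and 40.2) and 2.04 and 1.80 in Panx2 (percentiles 96.7 and 17.8). At Mir128-2 they were 1.88 and 1.86 in Mgea5 (percentiles 66.4 and 73.7) and 1.78 and 1.77 in Panx2 (percentiles 77.4 and 13.7). The Panx2 ranks therefore differed between replicates at both genes, and the Mgea5 ranks were close. Overlapping Mgea5 peaks of both replicates lay 3069 bp from Mir128-1 and, at Mir128-2, at 696 bp and farther. The nearest Polr1c peak was 33598 bp from Mir128-1 and 66039 bp from Mir128-2.

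Polr1c replicate 2 peaks were found within 1000 bp of the annotated starts of both host genes, outside the RefSeq promoters of these genes. At R3hdm1 the peak chr1:128103759-128104004 had a fold of 3.17 with the lowest q of the loci (0.0169), and it overlapped a Panx2 replicate 2 peak of fold 1.95. Zranb3, a helicase gene read in the opposite direction, also starts within 1000 bp of this peak. At Arpp21, which is read from the minus strand, chr9:112235441-112235595 reached a fold of 3.005 at a q of 0.422, and it overlapped a Panx2 replicate 2 peak of fold 1.87. This stretch also lies in the long non-coding RNA gene 2900079G21Rik. Mgea5 peaks of both replicates were at the far end of R3hdm1 (folds 2.16 and 1.75). Arpp21 had a Mgea5 peak at its ends in replicate 2 alone (fold 1.72). The R3hdm1 promoter, chr1:128103056-128103355, holds 1 partial cyclic AMP response site, TGACG on either strand (the opening letters of the full element), a motif present in 20.8% of all promoters.

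**Figure D2:**
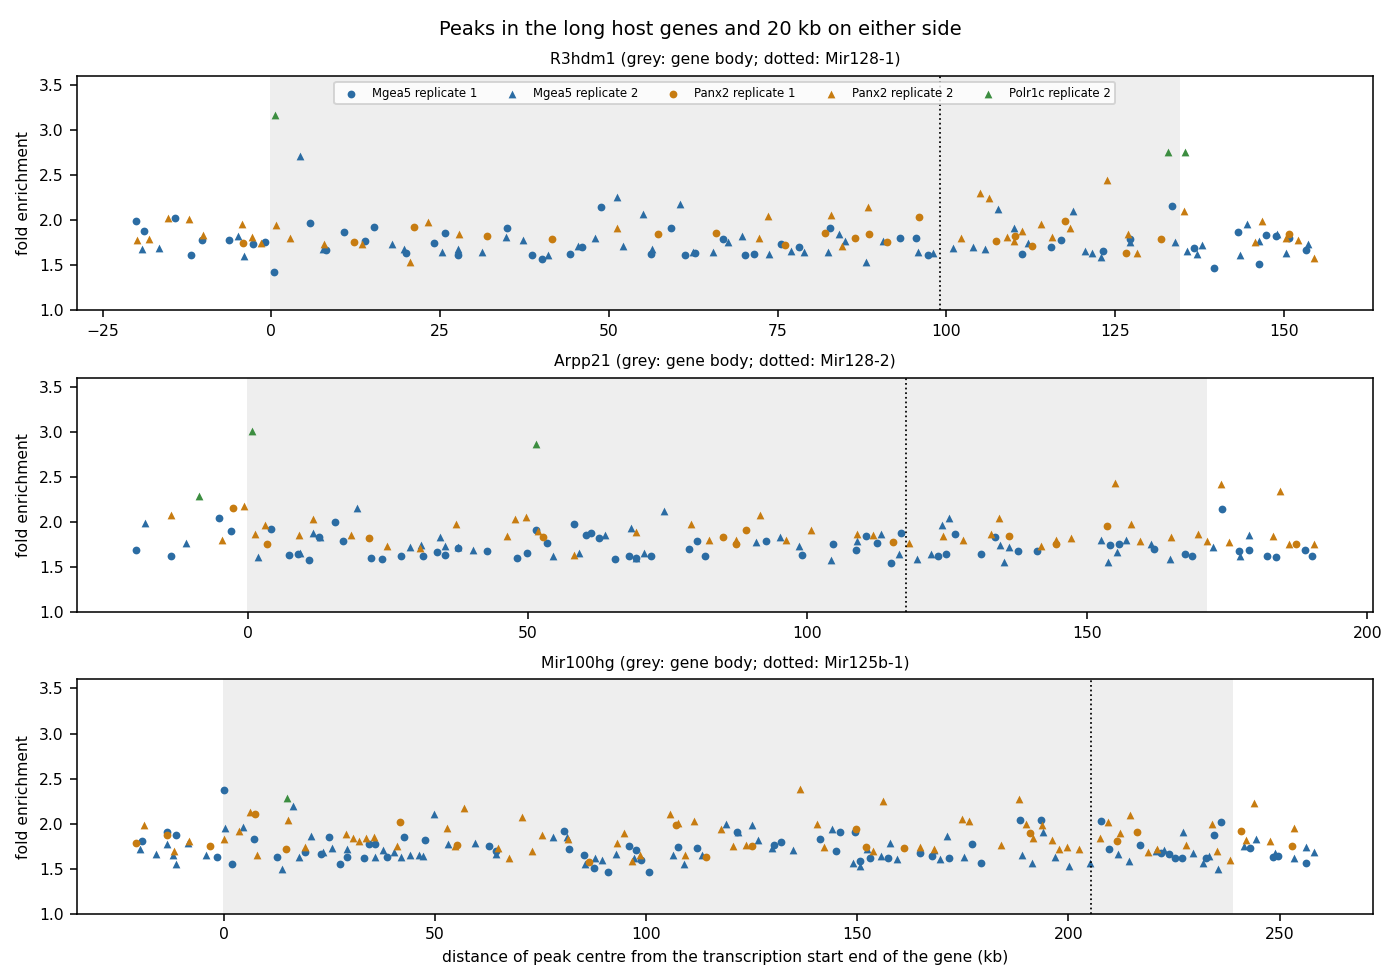
Fold enrichment of each peak (vertical axis) against the distance of its centre from the start of the host gene in kb (horizontal axis, along the direction of transcription), for R3hdm1, Arpp21 and Mir100hg with 20 kb on either side; circles are replicate 1, triangles replicate 2, and the dotted line marks the microRNA. Mgea5 and Panx2 peaks are spread along the whole of each gene, the Polr1c triangles at the starts of R3hdm1 and Arpp21 have folds of 3.17 and 3.005, and Mir100hg opens with a Mgea5 replicate 1 peak of fold 2.37.

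The 2 genes for miR-125b showed different patterns. Near Mir125b-1 the highest Mgea5 folds were 2.02 (percentile 87.2), at 2099 bp, and 1.56 (percentile 20.2), at 147 bp, with no overlap of the replicates within 5 kb (59.9% of all microRNA genes had one). Near Mir125b-2 they were 1.97 and 1.91, at percentiles 81.5 and 81.3, the closest match of the Mgea5 replicates among the 10 genes. Of 11 Mgea5 replicate 1 peaks in the Mir125b-2 region, 9 (81.8%) were overlapped by replicate 2, against 20 of 63 (31.7%) in the Mir125b-1 region and 34.8% of the whole list. The number of such overlaps per base around Mir125b-2 was at percentile 98.3 of all microRNA regions, and around Mir125b-1 at percentile 29.8. Panx2 replicate 1 had no peak within 5 kb of either gene, and the replicate 2 folds were 2.02 and 1.92 (percentiles 51.9 and 38.1). Polr1c peaks came no nearer than 190252 bp to Mir125b-1 and 56976 bp to Mir125b-2.

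The start of Mir100hg, the host gene of Mir125b-1, carried weak peaks of 3 lists, each with a q of 0.926 or more. Mgea5 peaks of both replicates were at an end of 63.6% of all protein-coding and long non-coding RNA genes. The share with peaks of all 3 lists was not computed. Mgea5 replicate 1 (chr9:41376484-41376786, fold 2.37) was the strongest Mgea5 replicate 1 peak of the region, and it lay within a replicate 2 peak (chr9:41376346-41377290, fold 1.95) and within a Panx2 replicate 2 peak (chr9:41376316-41377075, fold 1.83). All 3 overlap the RefSeq promoter, chr9:41376276-41376575 on the plus strand of GRCm38.p6, shown because it is the host gene start that both Mgea5 replicates share.
Mir100hg promoter: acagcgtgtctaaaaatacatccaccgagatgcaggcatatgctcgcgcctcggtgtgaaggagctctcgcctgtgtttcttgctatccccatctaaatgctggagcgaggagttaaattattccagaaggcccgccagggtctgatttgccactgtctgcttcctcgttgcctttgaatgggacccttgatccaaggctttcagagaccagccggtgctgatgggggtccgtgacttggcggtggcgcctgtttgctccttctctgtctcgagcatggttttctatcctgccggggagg
No capitals appear in it, since none of the motifs searched on both strands (TGACGTCA, TGACG, the E-box CACGTG and the RNA polymerase III box B GTTCGANNC) was found. They occur in 1.79%, 20.8%, 7.15% and 0.843% of all promoters. The window has 55% G and C. Farther along the gene, Mir100 had highest folds within 5 kb of 1.62 and 1.79 in Mgea5 and 1.75 and 2.25 in Panx2, and Mirlet7a-2 of 1.67 and 1.79 in Mgea5 and 1.73 and 2.25 in Panx2.

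Ranked among all microRNA genes, the 10 genes lay near the middle. The median over the 10 of the mean percentile of both replicates was 49.8 for Mgea5, from 16.6 at Mir124a-2 to 94.9 at Mir124a-3. It was 61.5 for Panx2, from 35.3 at Mir125b-2 to 79.6 at Mir132 and Mir212. For Polr1c it was 44.3, the value of a gene with no peak in either list. Percentiles above 50 in both replicates were found at 4 genes for Mgea5 (28.0% of all microRNA genes), at 3 for Panx2 (19.0%) and at 0 for Polr1c (0.896%). The 4 were Mir124a-3, Mir137, Mir128-2 and Mir125b-2, and the 3 were Mir124a-2, Mir132 and Mir212. As a description over 10 genes that share libraries, the Spearman correlation of the replicates was 0.65 for Mgea5 and -0.28 for Panx2, against 0.31 and 0.10 over the 1228 genes.

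**Figure D3:**
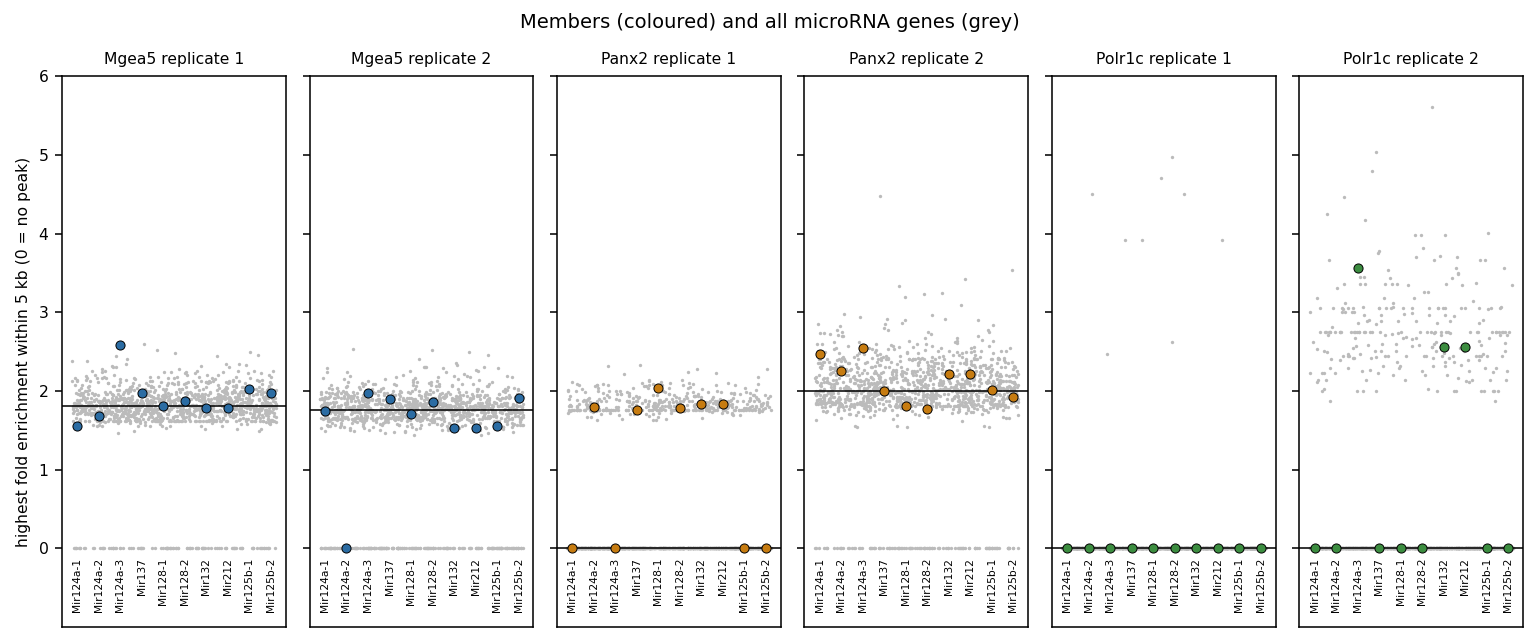
Highest fold enrichment within 5 kb of each of the 10 microRNA genes (large coloured points, vertical axis, 0 where there is no peak) in each of the 6 lists, with all 1228 microRNA genes as grey points spread at random along the horizontal axis and their median as a line; 7 grey values above 6 are beyond the axis. Mir124a-3 is at 2.58 in Mgea5 replicate 1 and 3.56 in Polr1c replicate 2, and most coloured points lie among the grey ones.

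Overlapping peaks of both replicates were found in most of the larger regions. Within 5 kb they occurred for Mgea5 at 5 of the 10 genes (59.9% of all microRNA genes), namely Mir124a-3, Mir137, Mir128-1, Mir128-2 and Mir125b-2. In the larger regions they occurred for Mgea5 at 8 genes (89.9%), all but Mir124a-1 and Mir124a-2, for Panx2 at 8 (65.6%), all but Mir124a-1 and Mir124a-3, and for Polr1c at 0 (2.36%). Over all regions, 36.2% of Mgea5 replicate 1 peaks were overlapped by replicate 2, against 34.8% in the whole list, and for Panx2 the shares were 30.4% and 28.1%.

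The share of a region under peaks varied more between the genes than their medians differed from those of other microRNA genes. In Mgea5 replicate 1 it ran from 1.63% at Mir124a-1 to 28.9% at Mir125b-2 with a median of 21.6%, against 19.3% for all microRNA regions, and in replicate 2 from 0.873% at Mir124a-2 to 24.5% at Mir137 with a median of 12.3%, against 13.2%. Panx2 replicate 1 peaks covered 0% at Mir124a-1 and 11.9% at Mir128-1, with a median of 6.98% against 3.38%. Panx2 replicate 2 peaks covered 5.78% at Mir124a-1 and 45.02% at Mir132, with a median of 14.4% against 19.5%. The Panx2 medians therefore lay above the other microRNA regions in replicate 1 and below them in replicate 2. Mir124a-1 and Mir124a-2 were low in both Mgea5 lists and in Panx2 replicate 2.

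**Figure D4:**
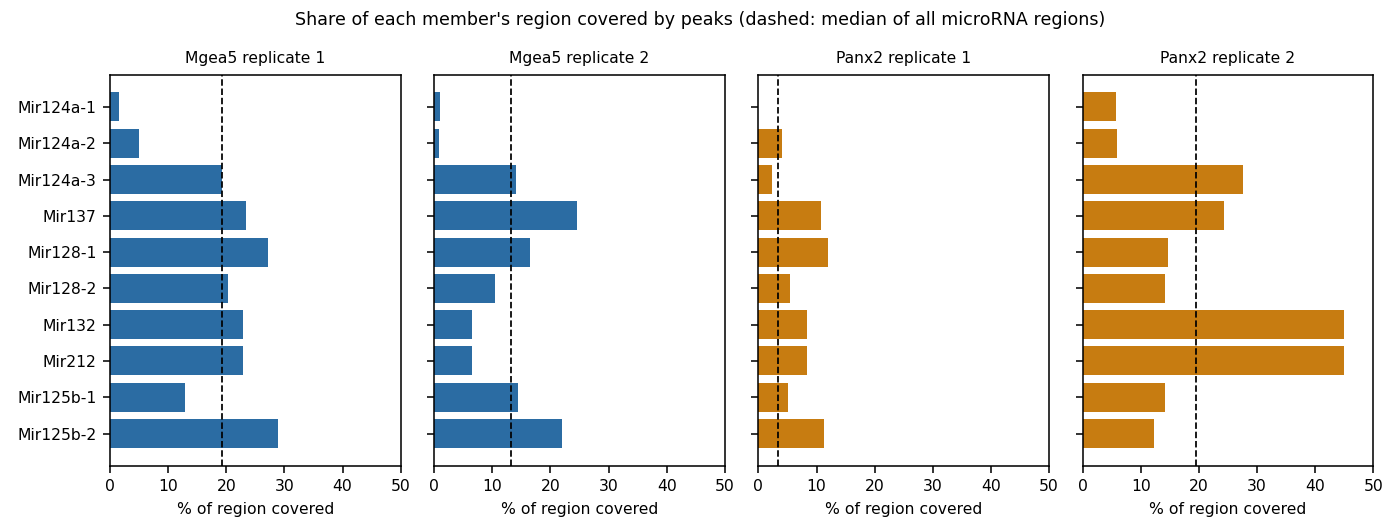
Percent of each region covered by peaks (horizontal axis) for the 10 microRNA genes in the Mgea5 and Panx2 lists, with the median of all microRNA regions as a dashed line. Mir132 reaches 45.02% in Panx2 replicate 2, Mir137 reaches 24.5% in Mgea5 replicate 2, and Mir124a-1 and Mir124a-2 are short in both Mgea5 lists.

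Host gene ends were compared with those of all protein-coding and long non-coding RNA genes. Of the 5 host genes, Mir100hg, Mir124a-1hg and R3hdm1 carried Mgea5 in both replicates at an end (within 1000 bp), 3 of 5 against 63.6% of genes. At Mir124a-1hg the replicates were at opposite ends, with folds of 1.55 and 1.74. None of the 5 had Panx2 peaks of both replicates (19.8%): replicate 1 had none at these ends and replicate 2 had peaks at 4. The share of all genes with a Panx2 replicate 2 peak at an end was not computed, so the 4 cannot be set against it. The 90.5% of all microRNA genes with a Panx2 replicate 2 peak is for 5 kb around a precursor and is no share for gene ends. No host gene had Polr1c peaks of both replicates (0.448%), and Polr1c replicate 2 had peaks at 2, R3hdm1 and Arpp21 (15.1%). Mir124-2hg had a peak in Mgea5 replicate 1 alone, with a fold of 1.71.

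Of 14 other protein-coding or long non-coding RNA genes in the regions, 8 had Mgea5 peaks of both replicates at an end (63.6% of all such genes), among them Hic1, Dph1, Ubxn4 and Ythdf1. Hic1, Ovca2 and Ythdf1, 3 of the 14, had Panx2 peaks of both replicates (19.8%), and none had Polr1c peaks of both (0.448%). At Hic1 the highest Mgea5 folds at an end were 1.70 and 1.52, and the Panx2 folds 1.89 and 2.22. The counts did not require both replicates to be at the same end. The Panx2 peaks of highest fold lay at opposite ends in the replicates at Hic1, Ovca2 and Ythdf1. The same held for the Mgea5 peaks at Gm41949 and Ubxn4. Polr1c replicate 2 had peaks at Hic1 (fold 2.56), at the start of Ythdf1 (fold 2.61) and, with the peak at the start of R3hdm1, within 1000 bp of the start of Zranb3 (fold 3.17).

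A list of 30 known regulators and targets of these microRNAs was examined in the same way. Mgea5 peaks of both replicates were at the ends of 25 of them (64.3% of all protein-coding genes). For Panx2 the count was 10 (20.1%), and for Polr1c it was 0 (0.521%). None of these counts was tested. Ranked by the geometric mean fold of both replicates, the highest for Mgea5 were at Actl6a (2.51 and 2.14), the progenitor subunit of the BAF chromatin remodeller, and at Sox9 (2.21 and 2.17), a glial and progenitor transcription factor known as a miR-124 target. By the same ranking, the highest for Panx2 were at the miR-137 target Ezh2 (1.89 and 2.65), a histone methyltransferase, and at Sox9 (1.79 and 2.75). Rest had Mgea5 folds of 1.83 and 1.76 and a Panx2 peak in replicate 2 alone (2.16). Creb1 had folds of 1.67 and 1.77 in Mgea5 and of 1.75 and 2.13 in Panx2. These folds are the highest at either end, so the peaks of the replicates need not coincide. The Mgea5 peaks at Rest and the Panx2 peaks at Creb1 were at opposite ends, and the Panx2 peaks at Ezh2 did not overlap. The Mgea5 peaks at Actl6a, Sox9 and Creb1 and the Panx2 peaks at Sox9 did overlap.

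Polr1c replicate 2 had peaks at 8 of the 30 genes (17.5% of protein-coding genes), namely Ctdsp2, Crtc1, Ptbp1, Actl6b, Dlx2, Ezh2, Reln and Lin28a, with folds from 2.27 at Ptbp1 to 3.67 at Reln. The strongest Panx2 value of the list, chosen after its value was seen, was a replicate 2 peak at Lhx2 (fold 4.19, q 0.000885), a progenitor transcription factor, where Panx2 replicate 1 had no peak.

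For each gene, the microRNA gene at least 100 kb away with the most similar percentiles over the 6 lists was found. The closest was Mir5124b for Mir125b-2, with a mean absolute difference of 0.774 percentile points, then Mir3059 for Mir128-1 (0.841) and Mir122 for Mir137 (1.51). The nearest to Mir124a-3 was Mir6910 (2.90), with folds of 2.25 and 2.04 in Mgea5, 2.50 in Panx2 replicate 2 and 2.74 in Polr1c replicate 2. Mir132 and Mir212 had the most distant nearest gene, Mir6989 (5.14).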

How the data were processed

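ChIP-seq peak lists of 6 libraries, 2 each for Mgea5, Panx2 and Polr1c, were analysed. The build was mm10 and the tools were MACS3 3.0.0a5, Bowtie2 2.3.5 and Trim Galore, per the submitters' processing notes. The caller's control and cut-offs, any filters and the depth were not given in the sources used here. Values deposited with every peak are a fold enrichment, which is a ratio, a −log10 p and a −log10 q, from which q was computed. Layouts are broad for Mgea5 and Panx2 and narrow for Polr1c. Lists were matched to samples by protein and replicate in the titles.

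Peaks on the 21 main chromosomes were compared with genes of the GRCm38.p6 RefSeq table in Python 3.11.15 with pandas 2.3.3 and numpy 2.4.6. An overlap was at least 1 bp. Windows were 5 kb around a precursor, 1000 bp around either gene end and 20 kb around a precursor with its host gene. Percentiles are mid-ranks of the highest fold among 1228 microRNA genes, with no peak as 0. No test was run: the libraries are 2 per protein and the genes are not replicates. Counts stand beside the same counts over all microRNA genes or all genes. The overlap and percentile steps were tested on simulated lists. Motifs were searched in 300-base promoters.

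The named genes are all 10 microRNA genes, their host genes, some neighbouring genes and some of the most similar microRNA genes. From the regulator list they are the genes of highest fold per protein, Rest, Creb1 and those with Polr1c peaks. The peaks given are the strongest within 5 kb of each precursor and some of the strongest elsewhere in the regions. The members and lists were chosen with earlier results of these data known. Alternatives were other windows and flanks, a q of at most 0.01, 5000 peaks per list, ranking by −log10 p, a reciprocal overlap of 50%, leaving out sparse chromosomes and leaving out each replicate.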

Additional observations from a re-analysis of the deposited data

How the results depend on the processing

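Of 75 alternative values for 12 results, 54 stayed close to the reported value, within 1.5 times for a count and within the SD of the replicates for a percentile, and 21 moved. Part of the 54 was fixed in advance. Polr1c replicate 1 had no peak in the regions, so counts that need both Polr1c replicates could only stay 0. At a q of at most 0.01 none of the genes had a peak, so each percentile was that of a gene with no peak. With 1 kb windows, genes with peaks of both replicates fell from 9 to 3 for Mgea5 and from 6 to 1 for Panx2. A q of at most 0.01 left 0 such genes, 0 regions with overlapping Mgea5 or Panx2 peaks (8 each as reported) and 0 host genes with Mgea5 ends (3 as reported), and moved the Panx2 percentile from 61.5 to 49.9. The strongest 5000 peaks per list likewise gave 0 genes and 0 regions for Mgea5 and Panx2. Panx2 regions fell from 8 to 5 with a reciprocal overlap of 50% and to 4 with 5 kb flanks. Panx2 host gene ends rose from 0 to 3 with windows of 2500 bp, and the Polr1c percentile was 36.8 with 20 kb windows (44.3 as reported). Leaving out either replicate, genes with a peak within 5 kb ranged from 9 to 10 for Mgea5, 6 to 10 for Panx2 and 0 to 3 for Polr1c. Percentiles ranged from 43.8 to 59.1, 63.8 to 74.4 and 39.1 to 49.5, and host gene ends were 4 and 4, 0 to 4 and 0 to 2. Overlapping regions need both replicates, so no replicate was left out there. No paired analysis was possible because the results come from no test, and the replicate numbers are shared only as labels. Read depth was unknown, so a missing peak may lie below the caller's cut-off.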
